A study of Rattus norvegicus with 9 samples.

Results

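A set of 10 peptide genes of the hypothalamus was followed in the supraoptic nucleus of dehydrated rats: Cck, Gal, Trh, Tac1, Npy, Adcyap1, Cartpt, Sst, Crh and Edn3. They were measured by the 16 probe sets that the platform annotation gives exactly 1 of these 10 symbols, out of 8740 probe sets other than Affymetrix controls. They are 10 of the 4736 genes that the array covers in this way. A probe set is a group of short oligonucleotides for 1 transcript, condensed by MAS5 into 1 signal. Total RNA came from male Sprague Dawley rats, 10 to 12 weeks old, in 3 groups of 3 arrays: controls, 1 day of dehydration and 3 days of dehydration. The titles mark the arrays of each group a, b and c. Whether these are separate animals or pools is not stated, so each p-value covers only the spread among the samples, part of which may be technical.

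The supraoptic nucleus is a cell group at the base of the hypothalamus whose large (magnocellular) neurons make vasopressin or oxytocin and release them from the posterior pituitary when blood becomes concentrated. Neuropeptides are cut from longer precursors in secretory granules, and many magnocellular neurons of the rat make a second peptide beside the main hormone, such as cholecystokinin in oxytocin neurons and galanin in vasopressin neurons. Other peptides of the set are known chiefly from neighbouring nuclei or from fibres that end on the magnocellular cells, and RNA measured in whole tissue cannot place a transcript in a cell. Nor can a dissected nucleus tell fewer cells of a type from less RNA per cell.

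The hormone genes of magnocellular neurons were bright on most arrays. On its brightest probe set, Avp, the vasopressin gene, had a signal of 1765 to 2868 on control arrays, of 1622 to 3292 after 1 day and of 3871 to 5678 after 3 days. Oxt, the oxytocin gene, read 2331 or more on 7 of the 9 arrays, but only 208.3 on control c and 272.0 on 1-day c. Those 2 arrays also had the lowest top signals of the series, 2105 and 2239. Top signals were highest on the 3-day arrays, at 4830 to 6295, against 3867 to 4137 on control and 1-day arrays a and b. Transcripts of neighbouring cell groups were present as well and differed widely among arrays: Pmch, the melanin-concentrating hormone gene of the lateral hypothalamus, spanned 50.8 to 667.8 and Hcrt, the orexin gene of the same area, 161.3 to 844.4. Both were lowest on array b of each group. Vip, a peptide gene of the suprachiasmatic nucleus, stayed between 2.2 and 27.3.

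Of the peptide genes tested, Cck and Edn3 lay furthest from control, Cck at 2.97-fold of control at 3 days and Edn3 at 2.55-fold at 1 day, but neither passed the test once adjusted over all probe sets. For the other tested genes the 95 percent interval of the difference from control included 0 at both times. Of the 16 probe sets, 14 in 9 genes were bright enough to be tested, with a mean signal of at least 23.1. Crh and a further Edn3 probe set fell below that level. Differences are given on the scale log2(signal + 4), which understates the change of dim genes. After Benjamini-Hochberg adjustment over 5247 probe sets, limma called 0 of the 14 at 1 day and 0 at 3 days, against 0 percent of all probe sets in each comparison. At an unadjusted p under 0.05 there were 2 of 14 at 1 day (Cck and Edn3), against 1.01 percent of all probe sets, and 1 of 14 at 3 days (Cck), against 1.72 percent. These genes were picked for study with earlier results of the same arrays known, so the shares are a description. The fit used here does not pair arrays by title letter, so spread between letters counts as error and can raise its p-values. A fit that pairs them is given further below.

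**Figure D1:**
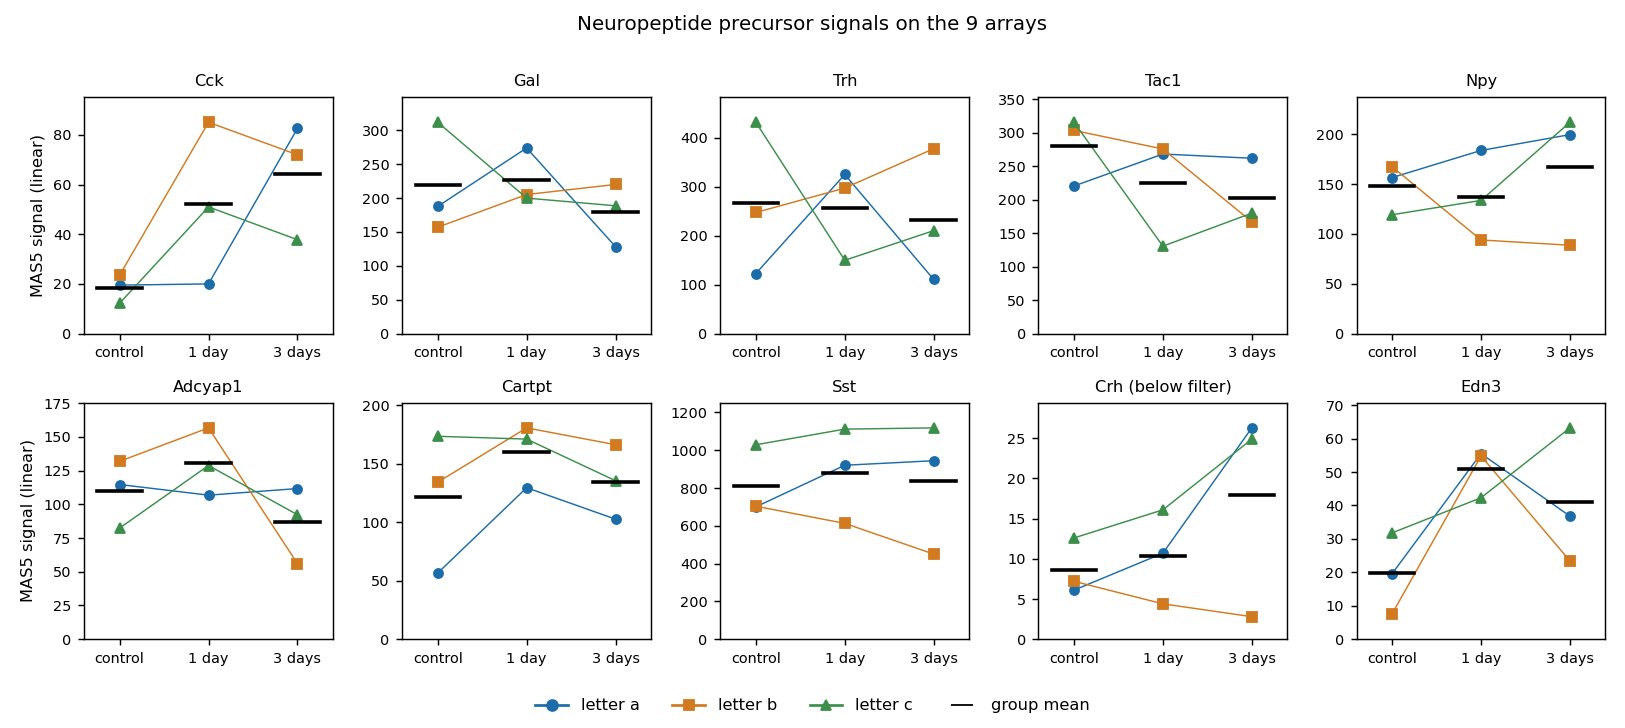
MAS5 signal (linear scale) of the highest-mean probe set of each of the 10 genes, by group; coloured symbols are single arrays, lines join arrays with the same title letter, and black bars are group means. Cck lies above all control arrays on the 3 arrays at 3 days, and Edn3 does so at 1 day, while the other genes overlap between groups.

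Promoter sequences were available for 7 of the 10 genes (Gal, Trh, Tac1, Npy, Adcyap1, Cartpt and Sst). They span 250 bases before to 50 bases after the annotated start, from RefSeq on the GRCr8 assembly. Several peptide genes are known to answer to cyclic AMP through a short palindrome, TGACGTCA, the cyclic AMP response element, long studied in the rat Sst gene. A search of both strands found TGACGTCA in 2 of the 7, Cartpt and Sst, and in 1.83 percent of 33469 rat promoters of the same length. Its 5-base core TGACG, which every full match also holds, occurred in 5 of the 7 (Gal, Trh, Tac1, Cartpt and Sst), against 21.2 percent of all. The 2 promoters with the full palindrome are shown, 5′ to 3′ on the gene's own strand, with the match in capitals. The Sst window lies at chr11:90461296-90461595 on the plus strand and the Cartpt window at chr2:32991186-32991485 on the minus strand.
Sst: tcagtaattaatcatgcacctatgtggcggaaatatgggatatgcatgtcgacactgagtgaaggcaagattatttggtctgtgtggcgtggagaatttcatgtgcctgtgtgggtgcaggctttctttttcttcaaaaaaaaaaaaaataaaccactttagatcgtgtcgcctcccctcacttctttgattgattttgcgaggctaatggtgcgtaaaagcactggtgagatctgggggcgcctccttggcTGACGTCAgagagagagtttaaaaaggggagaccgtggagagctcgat
Cartpt: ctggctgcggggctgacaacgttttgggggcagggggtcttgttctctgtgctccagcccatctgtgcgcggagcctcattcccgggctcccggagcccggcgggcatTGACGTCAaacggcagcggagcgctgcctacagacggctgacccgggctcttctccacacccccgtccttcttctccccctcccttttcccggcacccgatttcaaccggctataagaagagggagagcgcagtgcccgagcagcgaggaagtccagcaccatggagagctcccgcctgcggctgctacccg
The match begins 142 bases before the annotated start of Cartpt and at base 3 of the annotated Sst transcript. These are matches of letters only, and nothing was measured on binding. Neither gene was called at 1 day or at 3 days.

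Cck encodes cholecystokinin, a peptide of gut and brain that rat oxytocin neurons also make. Its signal (probe set X01032_at) was 19.5, 23.5 and 12.2 on control arrays a, b and c, 20.0, 85.1 and 51.0 at 1 day, and 82.6, 72.0 and 37.8 at 3 days. Every 3-day array was above every control array, while at 1 day array a sat within the control range and arrays b and c well above it. At 3 days the mean was 64.1 ± 23.4, against 18.4 ± 5.73 in control (SD, n = 3 each), a log2 difference of 1.57 ± 0.51 (SE), or 2.97-fold. Its unadjusted interval at 95 percent ran between 0.44 and 2.71 (limma adjusted p = 1). Within the letters a, b and c the 3-day difference was 1.88, 1.47 and 1.37, higher in 3 of 3.

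At 1 day the mean of Cck was 52.0 ± 32.6, against 18.4 ± 5.73 in control (SD, n = 3 each), a log2 difference of 1.16 ± 0.51 (limma adjusted p = 1). Within the letters it was 0.03, 1.70 and 1.76, so that letter a added almost nothing. Without 1-day array b it was 0.73, and without 1-day array a 1.68. Between the times, 3 days minus 1 day gave 0.41 ± 0.51 with 1 of 3 letters higher. That difference reversed to -0.11 when 1-day array a was left out. The F test over all 3 groups gave Cck an unadjusted p of 0.0287 (limma F adjusted p = 1) and counted it as the 1 probe set of the 14 under 0.05, against 1.05 percent of all probe sets; it called 0, against 0 percent.

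The scaling of the arrays moved Cck little. Its log2 difference was 1.54 at 3 days and 1.13 at 1 day after quantile normalization, which gives all arrays the same distribution. With both arrays low in Oxt left out (control c and 1-day c), a setting added once the data had been seen, it was 1.36 at 3 days and 0.86 at 1 day. Other transcripts also separated the 3-day arrays from control. The summed signal of 11 astrocyte markers, in which bright genes weigh most, was 13980 to 18360 at 3 days, against 8581 to 13790 in control. Of the 11, 8 were higher, against 51.7 percent of all probe sets. Those lower were Aqp4 (-0.28 ± 0.64), Gja1 (-0.26 ± 0.59) and S100b (-0.004 ± 0.49). The sum of 5 magnocellular markers, led by Avp and Oxt, was 8215 to 11270 at 3 days, against 2724 to 6734 in control, and 4 of the 5 were higher. The sum of 11 endothelial, mural and blood markers was 2038 to 2837 at 3 days, against 3338 to 3556 in control. Globin probe sets carried this gap: Hbb and Hbb-b1 summed to 1410 to 2040 at 3 days, against 2504 to 2842 in control. Both bear the suffix f, for oligonucleotides shared by a sequence family, and may read the same transcripts. The other 9 markers overlapped, at 548.8 to 1021 against 647.9 to 1053. Hbb was lower on every 3-day array (-0.70 ± 0.23, limma adjusted p = 1). The sums of 12 general neuron markers (8827 to 9733 at 3 days, against 7539 to 9968 in control), 9 oligodendrocyte markers (3612 to 8435 against 5074 to 7946), 9 microglia markers (487.4 to 517.6 against 347.3 to 487.8) and 10 markers of neighbouring hypothalamic cells (758.7 to 1254 against 496.3 to 1791) overlapped. The microglia sums overlapped only at the edge, and all 4 tested microglia genes were higher at 3 days (median log2 difference 0.30). The signal ratio of 3' to 5' probe sets, a measure of RNA integrity, overlapped with control at 3 days. It was 0.99 to 1.43 for beta-actin, against 0.74 to 1.07 in control, and 0.89 to 1.55 for Gapdh, against 0.93 to 1.09. Array c had the highest 3-day value of both ratios. The part of any of these marker shifts or of these ratios in the Cck difference was not tested.

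Edn3 encodes endothelin 3, a vasoconstrictor peptide of the endothelin family that is also made in brain. On its brighter probe set (E02223cds_f_at) it read 19.6, 7.6 and 31.8 on control arrays a, b and c, 55.5, 54.8 and 42.3 at 1 day, and 36.8, 23.4 and 63.2 at 3 days. All 1-day arrays were above all control arrays, whereas at 3 days array b fell inside the control range. The 1-day mean was 50.9 ± 7.43, against 19.7 ± 12.1 in control (SD, n = 3 each), a log2 difference of 1.35 ± 0.50, or 2.55-fold, with an unadjusted interval at 95 percent of 0.25 to 2.44 (limma adjusted p = 1). At 3 days it was 0.98 ± 0.50 (limma adjusted p = 1). The difference was positive in 3 of 3 letters at both times, at 1.33, 2.34 and 0.37 for 1 day and 0.79, 1.24 and 0.91 for 3 days.

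The other Edn3 probe set did not show this difference. S39779_at, too dim to be tested, read 6.7, 18.1 and 7.6 at 1 day, against 14.4, 15.7 and 4.5 in control, and 9.2, 9.1 and 17.9 at 3 days. Its log2 differences from control, in a fit without the brightness filter, were -0.06 ± 0.51 at 1 day and 0.10 ± 0.51 at 3 days. The suffix f of the brighter probe set marks oligonucleotides that match several members of a sequence family, so its signal may include transcripts other than Edn3. Control array b held much of the size: without it the brighter probe set stood at 0.91 at 1 day and 0.54 at 3 days. The summed signal of 11 endothelial, mural and blood markers was 3884 to 5320 on the 1-day arrays, against 3338 to 3556 in control. The globin genes Hbb and Hbb-b1 of red blood cells carried this gap: their sum was 3162 to 4352 at 1 day, against 2504 to 2842 in control. Their probe sets bear the suffix f as well and may read the same transcripts. The other 9 markers overlapped, at 618.2 to 967.6 against 647.9 to 1053. The 3 tested endothelial genes were not higher at 1 day, with log2 differences of -0.10 ± 0.38 for Pecam1, -0.42 ± 0.33 for Flt1 and -0.14 ± 0.44 for Slc2a1 (limma adjusted p = 1), and Kdr and Vwf were too dim to test. The beta-actin signal ratio of 3' to 5' probe sets, a measure of RNA integrity, was 1.13 to 1.48 at 1 day, against 0.74 to 1.07 in control. The same ratio for Gapdh overlapped, at 0.85 to 1.05 against 0.93 to 1.09. The part of the globin signal or of the actin ratio in the Edn3 difference was not tested.

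The groups did not overlap for 1 of the 14 probe sets at 1 day (Edn3), against 4.21 percent of all probe sets, and for 1 of 14 at 3 days (Cck), against 7.74 percent, shares near the background. At 1 day 10 of the 14 were higher and 4 lower, with a median log2 difference of 0.10, against 0.02 over all probe sets. At 3 days 7 were higher and 7 lower, with a median of 0.02, against 0.02 over all. Per gene the counts were 7 higher and 2 lower at 1 day, and 4 higher and 5 lower at 3 days.

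**Figure D2:**
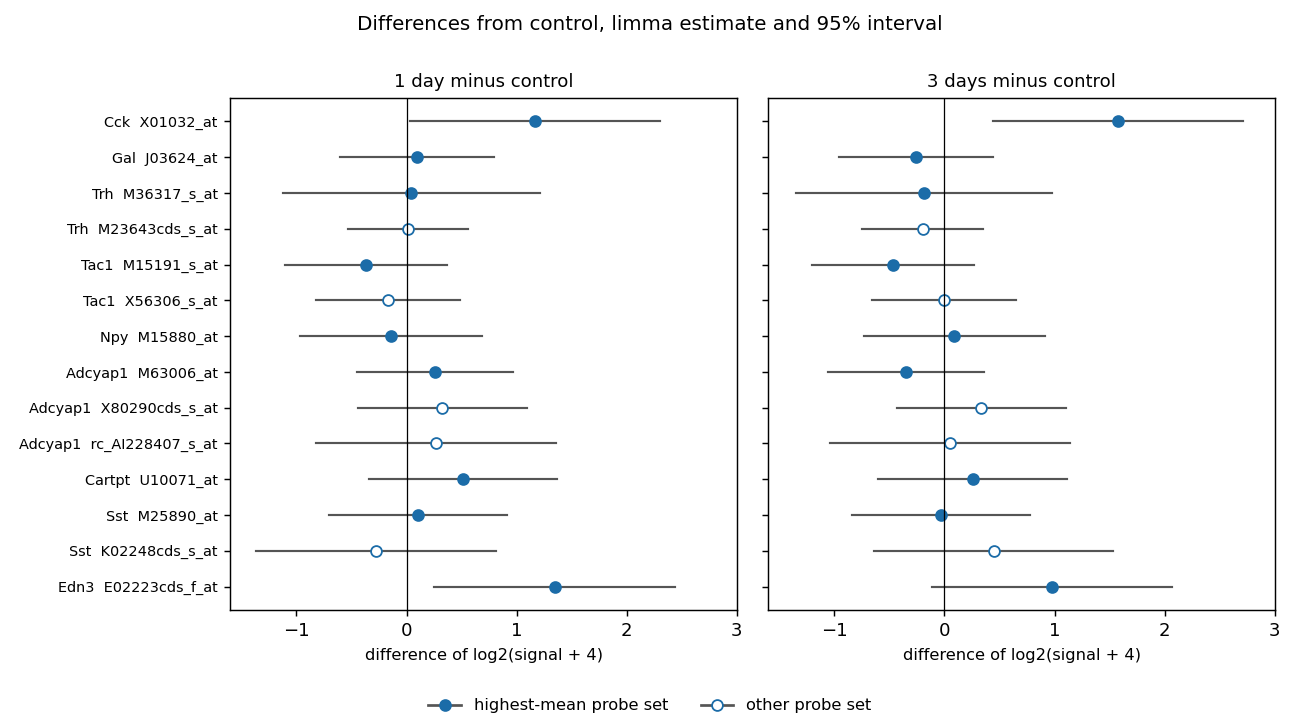
Log2 difference from control of the 14 tested probe sets at 1 day (left) and 3 days (right), with intervals at 95 percent from limma that are not adjusted for the number of probe sets; filled points are the highest-mean probe set of each gene. In this fit, which does not pair arrays by title letter, the intervals of Cck at both times and of Edn3 at 1 day lie above 0, and all others include 0.

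Gal encodes galanin, which rat vasopressin neurons make beside their hormone. It read 187.7, 157.0 and 311.9 on control arrays a, b and c, 273.9, 205.2 and 199.9 at 1 day, and 128.2, 220.1 and 188.6 at 3 days. The 3 groups overlapped, with control c the highest array of all and 3-day a the lowest. The log2 difference from control was 0.09 ± 0.32 at 1 day and -0.26 ± 0.32 at 3 days, with an interval at 95 percent of -0.96 to 0.44 at 3 days (limma adjusted p = 1 at both times). Without control c the 3-day value was 0.02.

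Crh encodes corticotropin-releasing hormone, the peptide that drives pituitary ACTH. Its 1 probe set was among the dim ones and was not tested: it read 6.1, 7.2 and 12.6 on control arrays a, b and c, 10.7, 4.4 and 16.1 at 1 day, and 26.3, 2.8 and 24.9 at 3 days. Letters a and c were highest at 3 days and letter b was lowest there. In the fit without the brightness filter Crh differed from control by 0.13 ± 0.62 at 1 day and 0.56 ± 0.62 at 3 days, and the 3-day differences within the letters were 1.58, -0.72 and 0.80. The array spread was larger than either difference.

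Cartpt encodes the precursor of CART, a peptide of many hypothalamic neurons. It read 56.6, 134.3 and 173.6 on control arrays a, b and c, 129.6, 180.8 and 171.2 at 1 day, and 102.7, 166.4 and 135.6 at 3 days. Control a was the lowest array of the series and the groups overlapped. The log2 difference was 0.51 ± 0.39 at 1 day and 0.26 ± 0.39 at 3 days (limma adjusted p = 1). Much of this rests on control a, without which the values were 0.06 and -0.20. Letter a gave 1.14 at 1 day, letter b 0.42 and letter c -0.02.

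Adcyap1 encodes PACAP, a peptide that raises cyclic AMP in its target cells, and its 3 probe sets did not move together. M63006_at read 114.7, 131.9 and 82.4 on control arrays a, b and c, 106.8, 156.7 and 128.8 at 1 day, and 111.7, 56.1 and 92.3 at 3 days. On 3-day b this probe set had its lowest signal, 56.1, while X80290cds_s_at and rc_AI228407_s_at had their highest, 180.2 and 82.2. The log2 difference at 3 days was -0.35 ± 0.32 for M63006_at, 0.33 ± 0.35 for X80290cds_s_at and 0.05 ± 0.50 for rc_AI228407_s_at (limma adjusted p = 1 for each). At 1 day all 3 were slightly higher, at 0.25 ± 0.32, 0.32 ± 0.35 and 0.27 ± 0.50, each within its own error. Between the times, 3 days minus 1 day, M63006_at gave -0.61 ± 0.32 (limma adjusted p = 0.998), the lowest unadjusted p (0.0856) of the members in that comparison. The 3-day b array held much of the M63006_at differences at 3 days: without it they were -0.34 from 1 day and -0.08 from control. Without control c the 1-day difference from control was 0.07.

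Sst encodes somatostatin, an inhibitory peptide made by periventricular and many other hypothalamic neurons. On M25890_at it read 700.4, 703.9 and 1029 on control arrays a, b and c, 920.7, 612.9 and 1112 at 1 day, and 944.6, 450.5 and 1119 at 3 days. Array c was highest in every group, and array b was lowest at 1 day and at 3 days, as it was for Hcrt and Pmch. The log2 difference was 0.10 ± 0.37 at 1 day and -0.03 ± 0.37 at 3 days. With the letter as a block the standard error fell to 0.22 and Sst was still not called (limma adjusted p = 0.966 at 1 day and 0.994 at 3 days). The second probe set, K02248cds_s_at, disagreed on single arrays: on 1-day c it read 104.5, its lowest, where M25890_at read 1112. Its log2 differences were -0.28 ± 0.49 at 1 day and 0.45 ± 0.49 at 3 days.

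**Figure D3:**
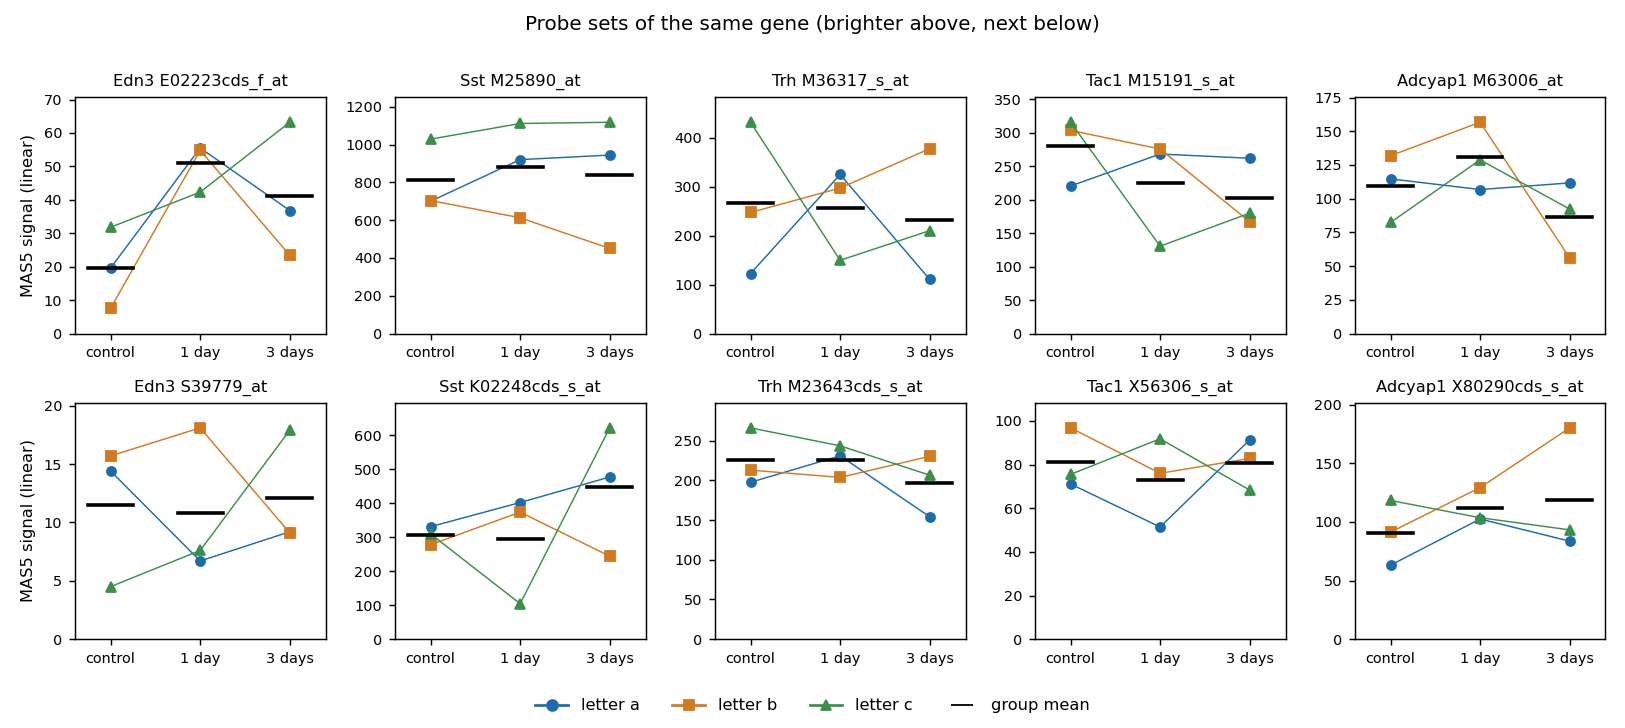
MAS5 signal (linear scale) by group for the brighter (top) and the next brightest (bottom) probe set of Edn3, Sst, Trh, Tac1 and Adcyap1; symbols are arrays, lines join title letters and black bars are group means. The pairs of Edn3 and of Adcyap1 differ in which arrays are highest, and for Sst the 1-day c array is near the top of the upper panel and lowest in the lower one.

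Trh encodes the precursor of thyrotropin-releasing hormone, which the paraventricular nucleus uses to drive the pituitary-thyroid axis. M36317_s_at read 122.5, 247.1 and 431.2 on control arrays a, b and c, 324.6, 296.9 and 149.5 at 1 day, and 110.4, 377.2 and 210.0 at 3 days. The control arrays alone spanned nearly the whole range of the series. The log2 difference was 0.04 ± 0.53 at 1 day and -0.19 ± 0.53 at 3 days. M23643cds_s_at was steadier, with a highest array 1.73 times the lowest, against 3.91 times for M36317_s_at. It gave 0.01 ± 0.25 and -0.20 ± 0.25, and its intervals at 95 percent, -0.54 to 0.56 and -0.75 to 0.35, were the narrowest of the members (limma adjusted p = 1).

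Tac1 encodes the precursor of substance P and neurokinin A. M15191_s_at read 220.5, 303.6 and 315.8 on control arrays a, b and c, 268.3, 275.8 and 130.6 at 1 day, and 262.0, 167.0 and 180.0 at 3 days. Arrays of all groups overlapped, and 1-day c was the lowest. Its log2 difference was -0.37 ± 0.33 at 1 day and -0.47 ± 0.33 at 3 days, with 1 of 3 letters higher at each time (limma adjusted p = 1). Without 1-day c the 1-day difference was -0.02. X56306_s_at gave -0.17 ± 0.30 and -0.003 ± 0.30, so that the 3-day difference of the brighter probe set had no counterpart there.

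Npy encodes neuropeptide Y, made by arcuate neurons and by brainstem neurons whose fibres reach the magnocellular nuclei. It read 156.5, 167.4 and 119.2 on control arrays a, b and c, 183.7, 93.9 and 133.6 at 1 day, and 199.6, 88.6 and 212.0 at 3 days. Within letter b both dehydrated arrays were below control, whereas letters a and c were above it at both times. The log2 difference was -0.14 ± 0.37 at 1 day and 0.09 ± 0.37 at 3 days (limma adjusted p = 1). Letter b stood at -0.81 and -0.89, letter a at 0.23 and 0.34.

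Between the dehydrated groups, 3 days minus 1 day, 5 of the 14 probe sets were higher and 9 lower, with a median log2 difference of -0.17, against 0.00 over all probe sets. limma called 0 of 14, against 0 percent, and 0 of 14 had an unadjusted p under 0.05, against 1.83 percent of all. None of the 14 separated the groups without overlap, against 5.72 percent. Cartpt was lower at 3 days than at 1 day in all 3 letters, at -0.32, -0.12 and -0.33, with a fitted difference of -0.26 ± 0.39 (limma adjusted p = 0.998).

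With the title letter as a replicate block, which pairs arrays across groups, limma again called 0 of the 14 at either time, against 0 percent of all. At an unadjusted p under 0.05 there were 2 of 14 at 1 day, against 2.59 percent of all probe sets in the same fit, and 2 of 14 at 3 days, against 5.15 percent. In both cases these were Cck and Edn3 (limma adjusted p = 0.958 at 1 day and 0.873 at 3 days for each). Cartpt came nearest after them at 1 day, with a standard error of 0.26 in place of 0.39 (limma adjusted p = 0.958).

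The peptides act through G protein-coupled receptors. Of 28 listed receptors and binding proteins of the members, 20 had a probe set and only 10 were bright enough to test. All 3 galanin receptors and the CRH-binding protein Crhbp were below that level. limma called 0 of the 10 at either time, against 0 percent of all probe sets. At an unadjusted p under 0.05 there were 0, against 1.01 percent of all at 1 day and 1.72 percent at 3 days. At 1 day 4 were higher and 6 lower (median -0.08), against 52.7 percent higher and a median of 0.02 over all. At 3 days 7 were higher and 3 lower (median 0.17), against 51.7 percent and 0.02. Cckbr, the brain cholecystokinin receptor, read 96.3, 20.3 and 29.4 on 1-day arrays a, b and c, against 85.9, 63.4 and 58.9 in control, and 122.9, 68.6 and 106.6 at 3 days. It was therefore lowest on the 1-day arrays b and c, where Cck was high, but not on the 3-day arrays, where Cck was high too. Its log2 difference was -0.74 ± 0.49 at 1 day and 0.47 ± 0.49 at 3 days, and 3 days minus 1 day gave 1.22 ± 0.49 (unadjusted p = 0.0299; limma adjusted p = 0.998). Npy1r, a neuropeptide Y receptor, stood at 0.43 ± 0.36 and 0.42 ± 0.36, and the neurokinin receptor Tacr3 at -1.10 ± 0.72 and 0.14 ± 0.72.

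Enzymes that cut, finish or degrade peptides were mostly bright enough to test, 21 of 24 with a probe set out of 29 listed. At 1 day 14 were higher and 7 lower (median 0.05), against 52.7 percent higher and a median of 0.02 over all probe sets. At 3 days 15 were higher and 6 lower (median 0.12), against 51.7 percent and 0.02. limma called 0 at either time, against 0 percent of all. At an unadjusted p under 0.05 there were 0, against 1.01 percent of all at 1 day and 1.72 percent at 3 days. Lnpep, an aminopeptidase that degrades oxytocin and vasopressin, read 39.3, 68.6 and 19.1 at 1 day, against 9.4, 24.6 and 15.7 in control, and 45.9, 41.1 and 26.4 at 3 days. Its log2 difference was 1.09 ± 0.51 and 1.06 ± 0.51, with no overlap at 3 days only. The amidating enzyme Pam stood at 0.38 ± 0.27 and 0.36 ± 0.27, and the convertase Pcsk2 at 0.07 ± 0.28 and 0.39 ± 0.28 (limma adjusted p = 1 for each). The Pam probe set bears the suffix f.

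Among 18 tested peptide precursors and granins outside the set, of 59 listed, limma called 0 at either time, against 0 percent of all probe sets. At 1 day 10 were higher and 8 lower (median 0.05), against 52.7 percent higher and a median of 0.02 over all. At 3 days 9 were higher and 9 lower (median 0.03), against 51.7 percent and 0.02. Under an unadjusted p of 0.05 there was 1 at each time, against 1.01 percent of all at 1 day and 1.72 percent at 3 days. At 1 day this was Tac3, the neurokinin B precursor, at -1.41 ± 0.60, and at 3 days Avp, at 0.95 ± 0.33 (limma adjusted p = 1 for both). Tac3 read 61.5, 26.8 and 8.2 on 1-day arrays a, b and c, against 87.4, 75.3 and 60.2 in control, which overlap through array a. The opioid precursor Pdyn stood at 0.14 ± 0.29 at 1 day and 0.58 ± 0.29 at 3 days, and its 3-day arrays (806.2 to 1120) were all above control (528.7 to 650.5).

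For each of the 9 tested genes, the 2 genes whose log2 signal over the 9 arrays was most alike were picked among 3188 others by the highest Pearson r. Being the highest of so many, and on arrays that share letters, these values are a description. Cck was most like Sort1, the sorting receptor sortilin (r = 0.877, Spearman 0.950), and Htr5b, a serotonin receptor (r = 0.869, Spearman 0.812). Edn3 was most like Hpcal1 (r = 0.915, Spearman 0.867) and Adh1c (r = 0.901, Spearman 0.800). Cartpt was most like Penk, the enkephalin precursor (r = 0.940, Spearman 0.850), and Spint2 (r = 0.939, Spearman 0.817). Penk, like Cartpt, had its lowest array in control a, at 161.0 against 241.3 to 356.8 on the other 8. Gal was most like Acadvl (r = 0.830) and Fam219b (r = 0.817), and Trh like Frmd5 (r = 0.790) and Cpt2 (r = 0.781). Tac1 was most like Paip1 (r = 0.942) and Dnaja1 (r = 0.941), and Npy like Mthfd1 (r = 0.931) and Ptbp1 (r = 0.925). Adcyap1 was most like Nsdhl (r = 0.961) and Rbpj (r = 0.934), and Sst like Slc25a17 (r = 0.954) and Copz1 (r = 0.941). None of these lists held another of the 10 genes.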

How the data were processed

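The deposited intensities are MAS5 signals of the authors on a linear scale, per the submitters' processing notes, which give no version used here. Their mean after trimming 2 percent at each end is 100.1 on every array, read from the values. Of 8740 probe sets other than controls, 7006 have 1 gene symbol in the platform annotation. From the signals log2(signal + 4) was computed. Probe sets with a mean under the 40th percentile (23.1) were not tested, which left 5247. All 9 arrays entered 1 linear model with a mean per group (limma 3.58.1, R 4.3.3, 6 residual degrees of freedom), with an intensity-dependent prior, two-sided tests and Benjamini-Hochberg adjustment over the 5247 at 0.05. The fit was also run on simulated data with independent errors and planted differences larger than those of the members. Those data lack the likeness of arrays with the same title letter, so they do not test the fit under it. Where a gene has several probe sets, all are given and counts per gene use the brightest.

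The members and gene lists were chosen with earlier results of these data known. The rule named every member, up to 3 genes per list by unadjusted p (fewer are printed), and the 2 most alike genes per member. Oxt, Hcrt, Pmch, Vip, Hbb, Penk and the brightness of single arrays were chosen for mention after their values were seen. The lists of other cell types were used for summed signals, counts of direction and a few named genes; the globin genes were set apart after their values were seen. Arrays of the same title letter were alike across groups. After subtraction of group means all 9 same-letter pairs across groups correlated positively (r = 0.17 to 0.47). The 18 pairs of different letters had r of -0.33 to 0.12. Subtraction ties these to the same-letter values, so they are not separate evidence. Alternatives were other pseudocounts, filters, scalings and priors, 2-group fits, each array left out and the letter as a block. Figures used Python 3.11.15 and matplotlib 3.10.9.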

Additional observations from a re-analysis of the deposited data

How the results depend on the processing

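In none of the alternatives run, the replicate block included, was a probe set called by limma in any pairwise comparison or by the F test (0 in each), and 0 of the 27 member differences was called in any of the 20 alternatives. Cck and Edn3 kept their direction against control in all of them; both lie below the filter at the 60th percentile, so that setting gave them no value. Leaving out 1 array reversed 24 of 243 values, in 14 differences, all smaller than their standard errors. Many of the 243 could not reverse, because leaving out an array outside a comparison does not change its difference. With the other planned settings 0 of 264 reversed. Of those settings only the pseudocounts and scalings can change a difference, so the rest say nothing about direction. The leave-one-out ranges at 1 day against control were -0.11 to 0.38 for Gal, -0.42 to 0.47 for Trh, -0.37 to 0.10 for Npy and -0.086 to 0.34 for Sst. At 3 days against control they were -0.46 to 0.025 for Gal, -0.65 to 0.25 for Trh, -0.13 to 0.48 for Npy, -0.20 to 0.58 for Cartpt and -0.29 to 0.36 for Sst. At 3 days against 1 day they were -0.11 to 0.84 for Cck, -0.66 to 0.21 for Trh, -0.44 to 0.085 for Tac1, -0.0092 to 0.62 for Npy and -0.39 to 0.26 for Sst. Without both control c and 1-day c, added after seeing the data, Tac1 at 1 day became 0.071, and at 3 days Gal became 0.025, Trh 0.24, Npy -0.055 and Sst 0.15; Sst at 3 days against 1 day became 0.056. The cause was not tested. With the letter as a replicate block the fitted differences were the same and no call changed. With 3 arrays a group the median standard error was 0.40, and dim probe sets such as Crh carry little signal.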
